A study of Sus scrofa with 6 samples.

Results

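The mRNA levels of 8 genes of glycosphingolipid synthesis, UGCG, B4GALT5, B4GALT6, A4GALT, ST3GAL5, ST8SIA1, B4GALNT1 and UGT8, were compared in the abdominal aorta of pigs on 2 diets. The genes were taken by symbol from the 30477 genes of the deposited expression table, and all 8 were found. They were chosen by measured values of this same diet contrast, so their differences between the diets are given as a description without p-values, and nothing is read from which of them were called. The animals were male Wuzhishan miniature pigs, all fed for 6 months. The sample labels give an age of 3 to 4 months, while the methods give an older age already at acquisition, before the feeding began. The NC group (n = 3) received normal chow, and the HFCF group (n = 3) received chow with added shortening, egg yolk powder, cholesterol and fructose, a diet rich in fat, cholesterol and fructose that serves as a model of atherosclerosis. Each pig gave 1 RNA-Seq library of the whole vessel wall, so the values hold every cell type of the tissue. In such bulk samples fewer cells of a type and less RNA per cell cannot be told apart.

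Glycosphingolipids are membrane lipids made of ceramide and a chain of sugars that is extended in the Golgi. UGCG adds glucose to ceramide, and B4GALT5 or B4GALT6 adds galactose to give lactosylceramide, from which the series part. A4GALT adds an alpha-linked galactose and opens the globo-series with Gb3, the lipid that accumulates in Fabry disease and binds Shiga toxin. ST3GAL5 instead adds sialic acid and gives GM3, the first ganglioside, which ST8SIA1 turns into GD3 and B4GALNT1 into GM2. UGT8 competes for ceramide in another way and makes galactosylceramide, the precursor of sulfatide and a major lipid of myelin.

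The libraries differed in ways that bear on every value below. The FPKM values (fragments scaled to exon length and to the mapped reads of a library) summed to 272207 to 287141 in the NC libraries and to 330222 to 338690 in the HFCF libraries. Read counts per library were not analysed here, and steps between low values gave relative depths of 1 to 1.37 in the NC and 1.03 to 1.07 in the HFCF libraries. The median log2 fold change of the 15384 tested genes was 0.32 above 0, and 78.7% of all calls were higher in the HFCF group. Other scalings brought that share down to 50.8% (median-ratio), 50.1% (quantile normalization) and 59.3% (values rescaled to TPM). Markers of contractile smooth muscle summed to 15350 to 22165 FPKM in the NC libraries, so the main cell type of the labelled tissue was present, and to 7820 to 12394 FPKM in the HFCF libraries, where 5 of the 6 markers were lower (limma, adjusted p under 0.05). All 8 macrophage markers were higher in the HFCF group, and the first HFCF pig had the most macrophage marker RNA, with a sum of 645.5 FPKM where the second had 282.1 and the third 263.6 FPKM. That library also had the weakest correlations with the other libraries of its group, 0.927 and 0.931 across genes, which are not independent replicates.

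A4GALT was by far the most abundant of the 8 mRNAs on both diets and was lower in the HFCF group, while ST3GAL5 rose from a low level to the second place. A4GALT (ENSSSCG00000026962) was measured at 111, 87.3 and 90.0 FPKM in the 3 NC pigs and at 40.7, 62.5 and 56.8 FPKM in the 3 HFCF pigs. All HFCF values lay below all NC values, and the first HFCF pig was the lowest. The group means were 96.1 ± 13.0 FPKM in the NC and 53.4 ± 11.3 FPKM in the HFCF group (SD, n = 3 each), a level 1.80-fold higher in the NC group. On the log2(FPKM + 0.1) scale used for all fold changes here, the difference was -0.86 with a standard error of 0.20, or -1.18 relative to the median of all tested genes. Without the first HFCF pig it was -0.68. Even after this fall A4GALT stood above 94.9% of the tested genes in the HFCF group, against 97.4% in the NC group.

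ST3GAL5 (ENSSSCG00000008227), the GM3 synthase, was measured at 1.98, 2.18 and 2.55 FPKM in the NC pigs and at 13.7, 10.6 and 12.5 FPKM in the HFCF pigs. The lowest HFCF value was several times the highest NC value. Its mean went from 2.24 ± 0.29 to 12.2 ± 1.56 FPKM (SD, n = 3 each), 5.47-fold higher in the HFCF group, with a log2 fold change of 2.40 and a standard error of 0.18. Without the first HFCF pig the log2 fold change was 2.32. The gene moved from above 46.8% of the tested genes in the NC group to above 77.0% in the HFCF group.

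The other enzymes of the ganglioside branch were much lower in level than ST3GAL5 in the HFCF group. ST8SIA1 (ENSSSCG00000031329), the GD3 synthase, had values of 0, 0.019 and 0.043 FPKM in the NC pigs, against 0.366, 0.292 and 0.048 FPKM in the HFCF pigs. The groups did not overlap, but the third HFCF pig was barely above the highest NC pig, and the gene passed the filter of a mean FPKM of at least 0.1 only through the HFCF group. Its log2 fold change of 1.33 (standard error 0.54) ranged from 0.27 with a pseudocount of 1 FPKM to 2.91 with one of 0.01 FPKM. B4GALNT1 (ENSSSCG00000000433), which makes GM2 and related lipids, was measured at 2.17, 2.27 and 1.18 FPKM in the NC and at 2.35, 2.30 and 2.46 FPKM in the HFCF pigs. NC pig 3 was low and the other NC pigs were close to the HFCF pigs. The log2 fold change of B4GALNT1 was 0.38 with a standard error of 0.28, which is 0.05 relative to the median of all genes, and it was 0.09 without the third NC pig and -0.22 after quantile normalization.

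Among the enzymes of the shared first steps, the values of the diets overlapped for each gene. UGCG (ENSSSCG00000022780), which makes the glucosylceramide that both branches need, was measured at 0.486, 0.920 and 1.20 FPKM in the NC pigs and at 3.36, 1.80 and 0.937 FPKM in the HFCF pigs. The third HFCF pig lay within the NC range, and the first was the highest. The log2 fold change was 1.04 with a standard error of 0.50, and 0.61 without the first HFCF pig. B4GALT5 (ENSSSCG00000007465), the main lactosylceramide synthase by level here, had 7.55, 9.60 and 8.01 FPKM in the NC and 8.96, 6.16 and 5.89 FPKM in the HFCF pigs. Its log2 fold change of -0.27 (standard error 0.21) was close in size to its error. B4GALT6 (ENSSSCG00000025005), the other lactosylceramide synthase, had 0.027, 0.049 and 0.254 FPKM in the NC and 0.451, 0.187 and 0.213 FPKM in the HFCF pigs, with a log2 fold change of 0.96 and a standard error of 0.52. The third NC pig was above 2 of the HFCF pigs, and the level of B4GALT6 was at most 0.0503 of that of B4GALT5 in any library.

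UGT8 (ENSSSCG00000031904), the galactosylceramide synthase, was near the lower end of what the libraries show. It had 0.057, 0.013 and 0.0099 FPKM in the NC pigs and 0.159, 0.127 and 0.110 FPKM in the HFCF pigs. The groups did not overlap, yet the mean of 0.079 FPKM over the 6 libraries was under the filter, so the gene was not among those tested. A fit without the filter gave a log2 fold change of 0.89 with a standard error of 0.22. The ratio of UGT8 to UGCG, the enzymes that compete for ceramide, overlapped between the groups, with a difference of -0.15 on the log2 scale. Markers of Schwann cells and myelin summed to 43.0 to 48.4 FPKM in the NC and to 38.2 to 48.1 FPKM in the HFCF libraries, and 0 of the 7 tested were called (limma), with 1 higher at an unadjusted p under 0.05.

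**Figure D1:**
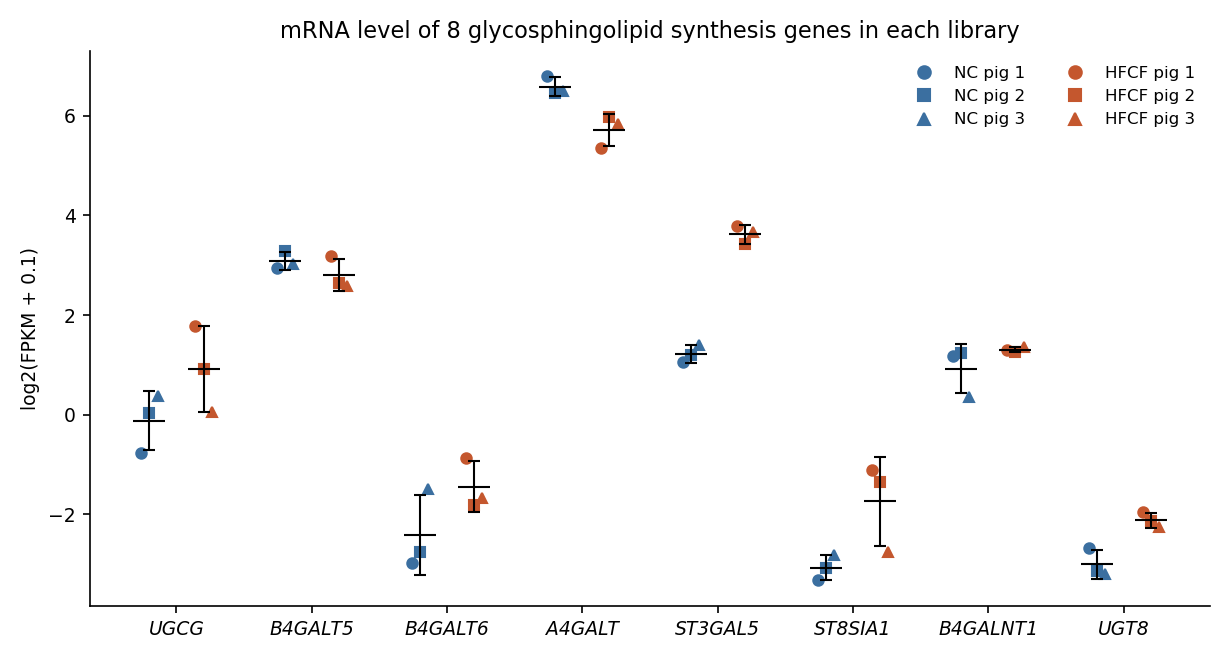
Level of the 8 genes in each library, as log2(FPKM + 0.1) on the vertical axis, with NC pigs in blue and HFCF pigs in orange. Black bars give the mean ± SD (n = 3), A4GALT lies above all other genes in both groups, and ST3GAL5 has the widest gap between the groups relative to its spread.

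Of the 8 genes, 7 passed the filter, and among these ST3GAL5 was called higher and A4GALT lower in the HFCF group. Over all tested genes, 22.8% were called higher and 6.16% lower (limma on log2 values, Benjamini-Hochberg adjusted p under 0.05). Without overlap between the groups, 3 of the 7 genes were higher and 1 was lower, where 36.1% of all tested genes were higher and 12.1% lower without overlap. The same contrast chose the genes, so these counts are no evidence about them.

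The order of the mean levels changed with the diet at the second place. FPKM is per exon length, so levels of different genes can be set side by side. In the NC group A4GALT was followed by B4GALT5, then by ST3GAL5, B4GALNT1 and UGCG, whose neighbouring ranges overlapped, and last by B4GALT6, UGT8 and ST8SIA1, whose ranges overlapped too. In the HFCF group ST3GAL5 stood between A4GALT and B4GALT5, without overlap with either. B4GALNT1 and UGCG followed with overlapping ranges, and B4GALT6, ST8SIA1 and UGT8 were again the lowest.

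The balance of the branches in mRNA was read within each library, where the scaling of the library cancels. It is no measure of the lipids made. The paper's own lipid measurements in abdominal aorta found hexosyl ceramides (CerG1) and the lipid class CerG3 increased in the HFCF group. Those measurements used more pigs per group than the 3 with libraries, and lipid levels were not set against the mRNA of single pigs here. The level of A4GALT was 55.9, 40.0 and 35.3 times that of ST3GAL5 in the NC pigs and 2.98, 5.92 and 4.54 times in the HFCF pigs. All NC ratios lay far above all HFCF ratios. The log2 ratio was 5.36 ± 0.34 in the NC and 2.10 ± 0.50 in the HFCF group (SD, n = 3 each), a difference of -3.26, or 9.59-fold. It was -3.00 without the first HFCF pig. Both genes were chosen on this contrast, so the ratio is a description as well.

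With the 3 ganglioside genes summed, A4GALT was at 26.7, 19.5 and 23.8 times their level in the NC pigs and at 2.49, 4.75 and 3.78 times in the HFCF pigs. A4GALT therefore made up 95.1% to 96.4% of the summed FPKM of these 4 genes in the NC libraries and 71.3% to 82.6% in the HFCF libraries. The share of ST3GAL5 was 1.72% to 2.72% in the NC and 14.0% to 23.9% in the HFCF libraries, with the first HFCF pig the highest. B4GALNT1 held 1.26% to 2.47% in the NC and 3.04% to 4.11% in the HFCF libraries. The sum itself was 100.3 ± 12.9 FPKM in the NC and 68.2 ± 9.82 FPKM in the HFCF group (SD, n = 3 each), and A4GALT remained the larger part of it in every library.

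**Figure D2:**
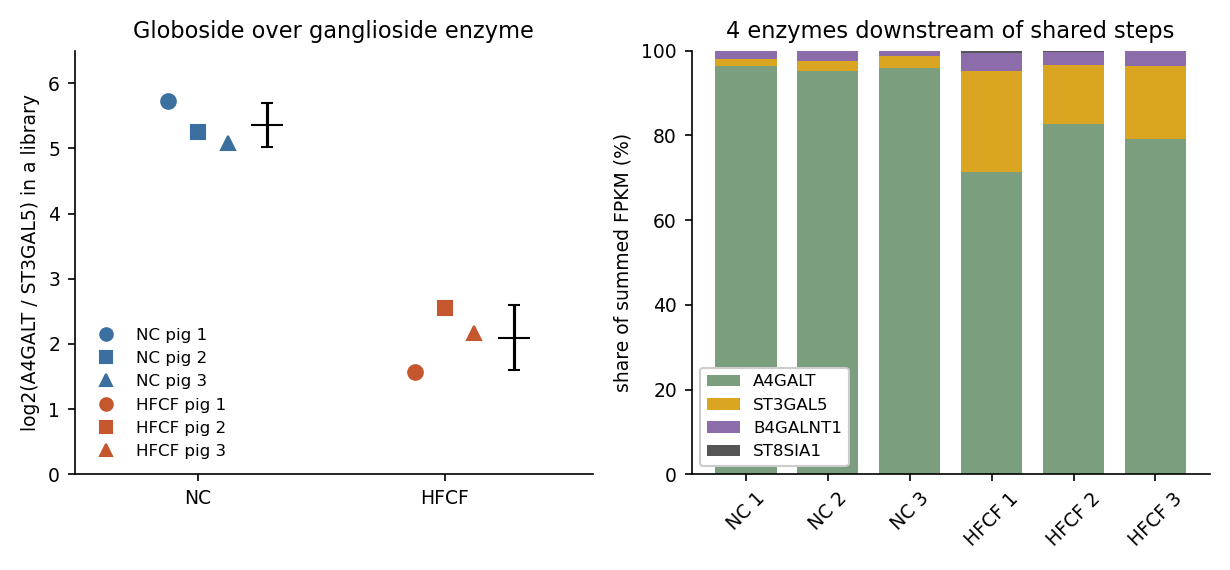
Left, log2 ratio of A4GALT to ST3GAL5 in each library with the mean ± SD (n = 3) in black, and right, the share (%) of A4GALT, ST3GAL5, B4GALNT1 and ST8SIA1 in their summed FPKM per library. The ratios of the NC pigs lie between 5.09 and 5.74 and those of the HFCF pigs between 1.57 and 2.55, and ST3GAL5 takes up most of the share that A4GALT lacks in the HFCF libraries.

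Cell type markers moved with both genes. The smooth muscle marker sum was 1.88-fold higher in the NC group, against 1.80-fold for A4GALT, and the log2 ratio of A4GALT to that sum was -7.57 ± 0.14 in the NC and -7.52 ± 0.29 in the HFCF group (SD, n = 3 each). The ranges of this ratio overlapped, as did those of A4GALT to MYH11, the smooth muscle myosin heavy chain, where the difference was 0.21. Both ratios thus did not separate the groups, but ACTA2 and TAGLN made up most of the sum. Ratios to the other single markers were not taken, and they need not overlap. The log2 fold changes of those markers ranged from -0.60 (TAGLN) to -1.48 (DES), and TAGLN alone had a smaller one than A4GALT at -0.86. A4GALT thus fell less than ACTA2, CNN1, SMTN and DES. SMTN had 988, 787 and 923 FPKM in the NC and 229, 383 and 475 FPKM in the HFCF pigs (log2 fold change -1.37). The macrophage marker sum was 24.9 to 26.9 FPKM in the NC and 263.6 to 645.5 FPKM in the HFCF libraries, and its mean was 15.3-fold higher in the HFCF group, against 5.47-fold for ST3GAL5. The log2 ratio of ST3GAL5 to that sum was lower in every HFCF pig, by 1.40 on average. Of the other lists, 2 of 4 T cell markers, 1 of 4 B and plasma cell markers and 1 of 5 fibroblast markers were higher, while 0 of the 6 endothelial, 5 adipocyte and 4 tested neuronal markers were called (limma). At an unadjusted p under 0.05, 2 endothelial markers were higher, and 0 of the adipocyte and neuronal markers passed. The adipocyte sum varied widely within the NC group, at 83.6, 136.7 and 4.98 FPKM. In the HFCF pigs it was 14.6, 7.61 and 21.2 FPKM, so the libraries also differed in adipocyte marker RNA. One neuronal marker, ELAVL4, was listed at 0 in every library. The part of these cell types in the levels of A4GALT, ST3GAL5 and the other genes was not tested.

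**Figure D3:**
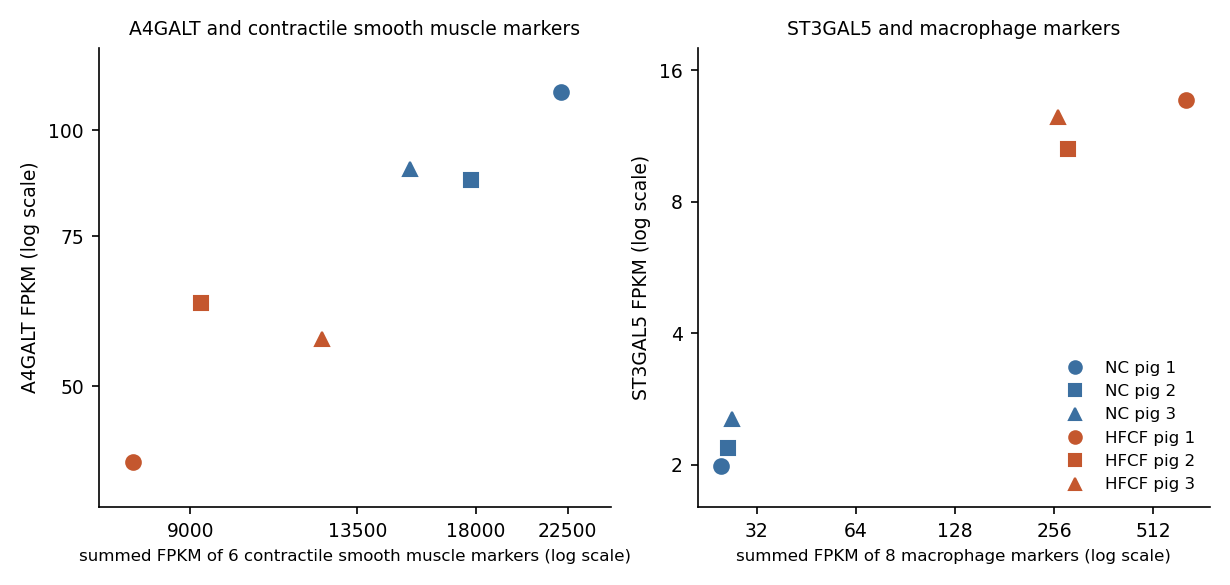
Left, A4GALT against the summed FPKM of 6 contractile smooth muscle markers, and right, ST3GAL5 against the summed FPKM of 8 macrophage markers, 1 point per library on log scales. The NC and HFCF pigs are apart on both axes in both panels, and the first HFCF pig is lowest for A4GALT and its marker sum and highest for ST3GAL5 and its marker sum.

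Of 50 further pathway genes in 7 lists, 48 were in the table and 46 were tested. The lists were chosen with earlier results of these data known. They hold SGMS1, ASAH1 and GALC, which the paper had reported as high in the HFCF group from its RNA-Seq data, so the calls are no independent check. Called genes numbered 15 among those higher and 0 among those lower with HFCF feeding (limma, adjusted p under 0.05), against 19 higher and 1 lower at an unadjusted p under 0.05. The latter, LAPTM4A, was called lower under each of the 3 other scalings. The calls came to 32.6% of the list against the 22.8% of all tested genes called higher, and the median log2 fold change was 0.45 against 0.32. With median-ratio scaling 7 of the 46 were called higher (15.2%, against 13.2% of all genes), with quantile normalization 5 (10.9% against 11.5%) and with values rescaled to TPM 7 (15.2% against 14.5%). ST8SIA3 and NEU4, a sialyltransferase and a sialidase, were listed at 0 in all 6 libraries.

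Genes that act after the branch point were tested in both directions from lactosylceramide. In the later globo- and lacto-series, 2 of 5 tested genes rose. FUT1, the fucosyltransferase of the H antigen, was measured at 12.4, 12.02 and 14.9 FPKM in the NC and at 29.5, 32.1 and 26.9 FPKM in the HFCF pigs, with a log2 fold change of 1.17 ± 0.15 (SE, adjusted p = 0.00298, limma). GBGT1, which forms the Forssman antigen from globoside, rose from a mean of 5.68 to 9.94 FPKM (log2 fold change 0.84, adjusted p = 0.0393, limma), a call that held in 4 of 15 alternative fits. B3GALNT1, which makes globoside from the product of A4GALT, had 1.42, 1.32 and 1.35 FPKM in the NC and 2.34, 1.88 and 3.54 FPKM in the HFCF pigs. The groups of B3GALNT1 did not overlap, but its log2 fold change of 0.83 missed the threshold (adjusted p = 0.0597, limma). FUT1 and GBGT1 were thus higher in the HFCF group, where A4GALT, which opens the globo-series, was lower.

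In the later ganglioside steps 1 of 7 tested genes rose. It was ST8SIA5, a sialyltransferase of polysialylated gangliosides, at 0.180, 0.381 and 0.102 FPKM in the NC and 1.03, 1.55 and 0.572 FPKM in the HFCF pigs (log2 fold change 1.84, adjusted p = 0.0282, limma), with the call kept in 8 of 14 alternative fits. ST6GALNAC4, the most abundant of the 7 tested, varied widely within both groups, from 10.3 to 25.3 FPKM in the NC and from 7.71 to 25.9 FPKM in the HFCF pigs (log2 fold change -0.60, adjusted p = 0.43, limma). The median log2 fold change of the 7 tested genes was 0.12, below the 0.32 of all tested genes. ST6GALNAC6 was not found by symbol. A gene without a symbol, ENSSSCG00000005623, which the deposited KEGG annotation places in the ganglio-series, had higher means than ST6GALNAC4. They were 30.7 FPKM in the NC and 21.5 FPKM in the HFCF group (log2 fold change -0.61, adjusted p = 0.189, limma). Which enzyme it encodes was not determined. GAL3ST1, which sulfates the product of UGT8, spanned 0.114 to 2.43 FPKM in the NC and 0.059 to 8.88 FPKM in the HFCF pigs, so no difference between the groups was detectable (log2 fold change 0.69, adjusted p = 0.765, limma).

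Of 3 genes for membrane proteins needed for A4GALT activity or for Golgi glycosylation, 0 were called (limma). LAPTM4A, a membrane protein needed for Gb3 synthesis, had 147, 158 and 154 FPKM in the NC and 119, 117 and 122 FPKM in the HFCF pigs. The groups of LAPTM4A did not overlap, with a log2 fold change of -0.36 ± 0.12 (SE) and an adjusted p of 0.0661 (limma), which became 0.0087 with median-ratio scaling, 0.0338 with quantile normalization and 0.0151 with values rescaled to TPM. TM9SF2, a Golgi protein also needed for Gb3, went from a mean of 22.3 to 27.4 FPKM and was not called (log2 fold change 0.30, adjusted p = 0.16, limma).

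Ceramide itself has other uses, and 2 of the 7 genes for its transfer and use rose. SGMS1, the Golgi sphingomyelin synthase, was measured at 0.800, 1.07 and 1.15 FPKM in the NC and 4.52, 2.63 and 2.86 FPKM in the HFCF pigs, with a log2 fold change of 1.61 ± 0.28 (SE, adjusted p = 0.00793, limma). SAMD8, a related enzyme that makes ceramide phosphoethanolamine, rose from a mean of 1.09 to 2.63 FPKM (log2 fold change 1.19, adjusted p = 0.0301, limma), and its call held in 6 of 15 alternative fits. The middle log2 fold change of these 7 genes was -0.05.

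For the sugar donors, 4 of 7 tested genes rose: UGP2, which makes UDP-glucose, and NANS, CMAS and SLC35A1, which make sialic acid, activate it and carry it into the Golgi. Their mean levels went from 8.08 to 14.5 FPKM for UGP2, from 6.04 to 10.6 FPKM for NANS, from 8.01 to 11.3 FPKM for CMAS and from 2.92 to 5.19 FPKM for SLC35A1. The log2 fold changes lay between 0.49 and 0.85 and the adjusted p-values between 0.0193 and 0.0487 (limma), and the calls held in 8, 9, 3 and 5 of 15 alternative fits, in the same order. None of the 4 calls held under the 3 other scalings, with which the log2 fold change of CMAS was 0.14 to 0.24. GNE, which starts sialic acid synthesis, was not called (log2 fold change -0.38), and NC pig 3 stood apart from the others at 9.35 FPKM.

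The largest log2 fold changes among the 46 genes were those of breakdown genes. Of 16 tested genes, 6 rose, and the median log2 fold change was 0.53. GM2A, the activator protein with which hexosaminidase digests GM2, was measured at 16.9, 23.8 and 35.5 FPKM in the NC and at 172, 112 and 107 FPKM in the HFCF pigs (log2 fold change 2.38 ± 0.31, SE, adjusted p = 0.0029, limma). ASAH1, the acid ceramidase, had 5.82, 8.18 and 9.68 FPKM in the NC and 53.6, 25.3 and 22.0 FPKM in the HFCF pigs (log2 fold change 1.99 ± 0.36, SE, adjusted p = 0.00868, limma). Every HFCF pig was above every NC pig for both genes, and the first HFCF pig, with the highest macrophage marker sum, was the highest. HEXA, the alpha subunit of hexosaminidase, rose from a mean of 20.3 to 37.9 FPKM (log2 fold change 0.89, adjusted p = 0.00751, limma). GALC, which removes galactose from galactosylceramide, rose from 0.919 to 2.82 FPKM (log2 fold change 1.505, adjusted p = 0.0119, limma).

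The remaining breakdown genes differed less. ARSA, which desulfates sulfatide, rose by 0.60 on the log2 scale (adjusted p = 0.0268, limma), a call that held in 5 of 15 alternative fits. GLA, the enzyme that digests Gb3 and is deficient in Fabry disease, had 5.96, 6.71 and 7.99 FPKM in the NC and 14.9, 8.26 and 6.89 FPKM in the HFCF pigs. The third HFCF pig lay within the NC range, and GLA was not called (log2 fold change 0.46, adjusted p = 0.278, limma). SCARB2 and PSAP had log2 fold changes of 0.94 and 0.44 without a call, and SUMF1 one of -0.40. FUT1, SGMS1, GM2A, ASAH1 and HEXA were the genes called in all 15 alternative fits. The call rule of the study asks for a p-value under 0.05, without adjustment, and a ratio of group means above 2 or below 0.5. It was not met by HEXA, whose ratio was too small.

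**Figure D4:**
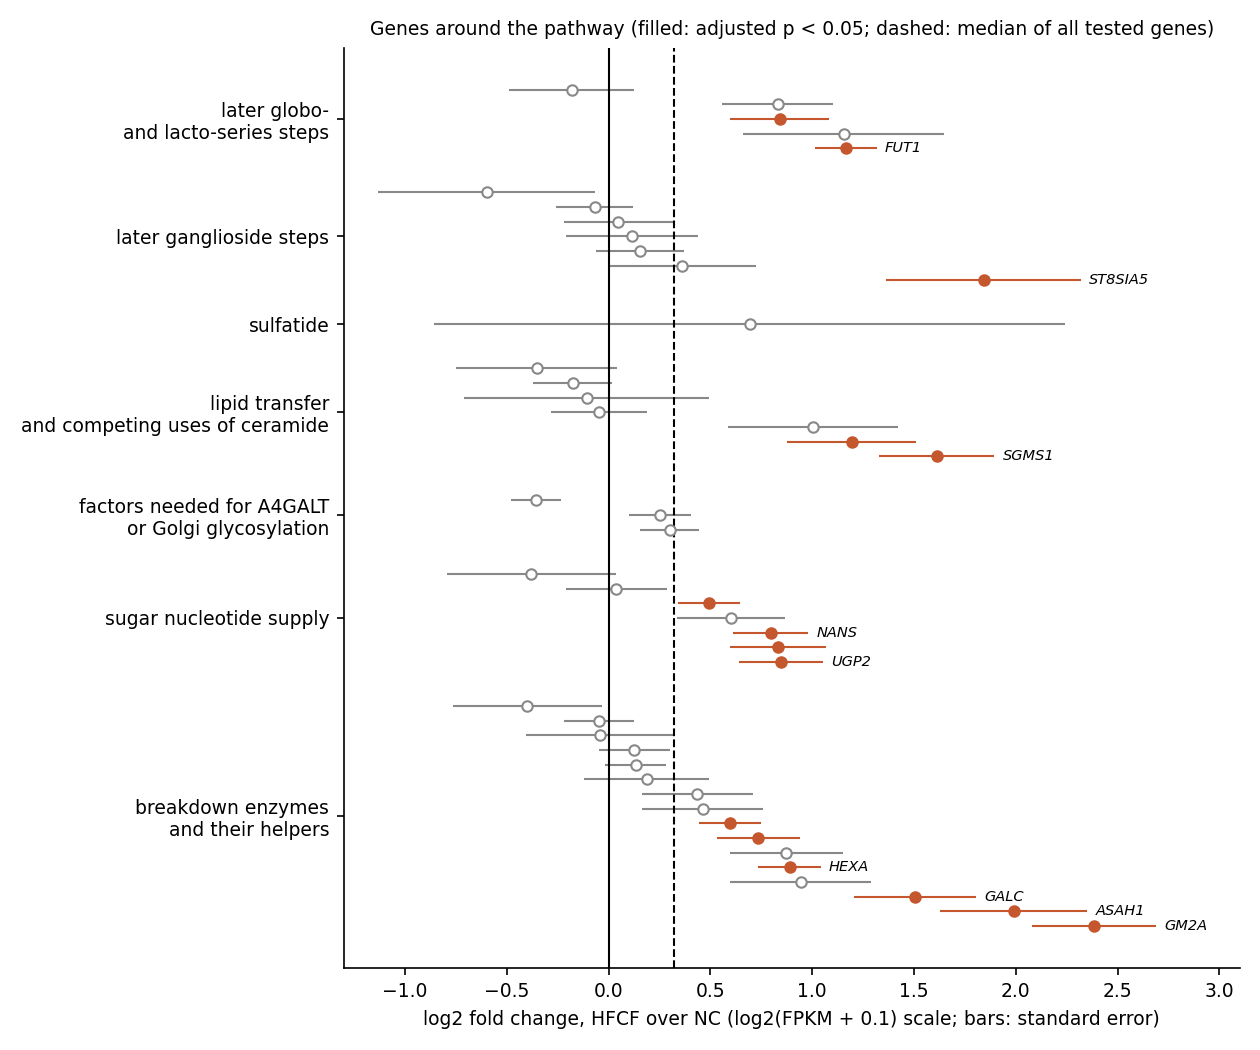
Log2 fold change, HFCF over NC, of the 46 tested pathway genes by list, with bars for the standard error. Filled points have an adjusted p under 0.05 (limma), the dashed line is the median of all tested genes at 0.32, and the filled points, 15 in all, lie to its right. Names are given where the call held in at least 8 alternative fits.

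Finally, the genes whose levels ran most like those of the main enzymes over the 6 libraries were identified among 10089 genes with a mean of at least 1 FPKM, by the root mean square difference of the centred log2 values. For A4GALT they were PRDM16, CD151, CYS1, SRPK3 and ZBTB7C, with differences of 0.071 to 0.097. CD151, a tetraspanin of the cell surface, had 593, 492 and 502 FPKM in the NC and 192, 325 and 294 FPKM in the HFCF pigs. For ST3GAL5 they were GGA3, ST3GAL6, NOP10, TOMM7 and SMIM15, with differences of 0.152 to 0.172. ST3GAL6, a sialyltransferase that acts on other acceptors, had 0.298, 0.441 and 0.407 FPKM in the NC and 2.69, 1.92 and 1.97 FPKM in the HFCF pigs. For UGCG they were CASP8, RP2, RNF144B, GCH1 and TBC1D30, with differences of 0.193 to 0.241. Each of these 5 was highest in the first HFCF pig, as was UGCG, whose pattern they were chosen to match.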

How the data were processed

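The authors trimmed paired-end reads with cutadapt 1.9, checked them with FastQC, aligned them with HISAT2 to the pig genome and quantified genes with StringTie, according to the methods and labels, and deposited FPKM values with gene names. The methods name an older pig assembly than the tables at hand, so no coordinates are given. Values of 0.0001 FPKM were read as 0. Depth per library is unknown. Replicates are separate pigs.

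The 15384 genes averaging 0.1 FPKM or more were analysed as log2(FPKM + 0.1), which understates fold changes of low genes, with limma 3.58.1 in R 4.3.3 (diet as the sole term, trended eBayes, Benjamini-Hochberg adjustment over all tested genes). The fit was tested on simulated data. With 3 pigs against 3, an exact permutation test cannot go below p = 0.1 and was not used. Tested pathway genes were named if called, together with the 12 uncalled ones of largest change at a mean FPKM of at least 1, except for items that are not reported here, and a few others were named after their values were seen. The 8 genes, the 7 pathway lists and the 9 marker lists were chosen with earlier results of these data known. Alternatives were other pseudocounts, filters, scalings, no trend, a block by replicate number, the study's call rule and each library left out.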

Additional observations from a re-analysis of the deposited data

How the results depend on the processing

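The within-library difference between A4GALT and ST3GAL5 kept its direction in every alternative, between -3.49 and -2.88 on the log2 scale. The log2 fold change of A4GALT ranged from -1.22 to -0.68, that of ST3GAL5 from 1.99 to 2.50, that of UGCG from 0.44 to 1.48, that of B4GALT5 from -0.63 to -0.16 and that of B4GALT6 from 0.21 to 1.71, and of the 7 tested genes B4GALNT1 alone changed sign, after quantile normalization. Of the 7 tested genes, 5 lay above the median of all genes, and 4 or 5 did so in the alternatives. The 15 pathway calls became 8 after median-ratio scaling and rescaling to TPM (7 of the 15, plus LAPTM4A as lower), 6 after quantile normalization (5 of the 15, plus LAPTM4A) and 8 under the study's call rule, and 6 to 11 with each pig left out, 6 of them without the first NC pig and 8 without the first or the second HFCF pig. The 4453 calls over all genes became 2399 to 3562 with each pig left out, 2399 without the first NC pig, 2879 without the second NC pig and 2936 without the second HFCF pig. With the replicate block, 8 pathway genes and 2772 genes in all were called, but the same-numbered pigs did not deviate together (correlations of 0.0206, -0.0795 and -0.0724), so the numbers do not pair the samples. Over all results and alternatives, 254 values kept their direction and side of the threshold, 93 kept their direction but lost the call or fell in count by over 1.5 times, and 13, all log2 fold changes of the 8 genes, moved by more than the spread between replicates. The cause was not tested. Precision is limited by 3 pigs in a group and, for ST8SIA1, B4GALT6 and UGT8, by levels near the lower end of detection, where the pseudocount sets the fold change.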

Other observations

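The deposited KEGG annotation places further sialyltransferases and other enzymes in the lacto- and neolacto-series. Of 18 tested genes of that pathway other than the 8 genes described, 5 were called higher and 1 lower in the HFCF group (limma, adjusted p under 0.05). These shares, 27.8% and 5.56%, are near the 22.8% and 6.16% of all tested genes. ST3GAL6 rose from a mean of 0.382 to 2.19 FPKM (log2 fold change 2.25, adjusted p = 0.00257, limma), ST3GAL4 from 5.92 to 10.1 FPKM (0.78, adjusted p = 0.0295) and B3GNT3, which extends such chains with N-acetylglucosamine, from 8.16 to 24.3 FPKM (1.70, adjusted p = 0.0262). ST3GAL3 fell from 15.3 to 8.24 FPKM (log2 fold change -0.88, adjusted p = 0.00952, limma). In the globo-series pathway 3 of 11 and in the ganglio-series pathway 2 of 12 tested genes were called higher and 0 lower (limma), which is 27.3% and 16.7% beside the 22.8% of all tested genes. At an unadjusted p under 0.05 these were 5 and 3 higher and 0 lower. The KEGG lists and the genes named from them were chosen after the values were seen.

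The genes next to the 8 genes in the RefSeq annotation of Sscrofa11.1 were also looked up after the values were seen. Of 11 tested neighbours, 2 were called higher and 2 lower (limma), and 7 were not called. Over all tested genes, 22.8% were called higher and 6.16% lower. SLC9A8 beside B4GALT5 was called lower (log2 fold change -1.32), and TTR beside B4GALT6 (2.25) and C2CD5 beside ST8SIA1 (1.68) higher. TTR was low in level, with means of 0.042 FPKM in the NC and 0.565 FPKM in the HFCF group. The other neighbour of A4GALT was not found among the deposited genes. ARFGAP3, beside A4GALT, was at 20.01, 21.4 and 23.6 FPKM in the NC and at 13.4, 15.4 and 14.1 FPKM in the HFCF pigs (log2 fold change -0.60, adjusted p = 0.0196, limma). POLR1A and ATOH8, on either side of ST3GAL5, were not called, with log2 fold changes of -0.12 and 0.12.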
